A study of Rattus norvegicus with 4 samples.

Results

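Lymphatic endothelial cells of rat skin were taken as the single cells of the skin libraries that held at least 5 unique molecular identifiers (UMIs, each a counted RNA molecule) of Ccl21, at least 1 UMI of Prox1, Mmrn1 and Flt4 summed, and none of Ptprc, the leukocyte gene for CD45. Only barcodes with 500 or more detected genes, and with no more than 20% of UMIs from mitochondrial genes, were considered. The rule found 102 cells among 23902 skin cells kept, 23 of 7460 in skin replicate 1 and 79 of 16442 in skin replicate 2; the whole series kept 37722 cells.

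Lymphatic endothelium lines the blind-ended capillaries and the collecting vessels that drain fluid, lipids and leukocytes from the dermis. Its identity depends on the transcription factor Prox1 and on signalling of VEGF-C through the receptor Flt4 (VEGFR3). Ccl21 is the chemokine that draws Ccr7-bearing dendritic cells and T cells into lymphatic vessels, and Mmrn1 (multimerin 1) is a secreted protein of these cells. Capillary cells carry the hyaluronan receptor Lyve1, whereas collecting vessels and valves carry more Foxc2 and Cldn11.

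The series profiled wild-type (WT) rats by droplet single-cell RNA sequencing with 3' 10x chemistry: 2 libraries of skin and 2 of subcutaneous fascia, the membranous connective tissue beneath the skin, with no treatment named. Both tissues were digested with collagenase and elastase, filtered through strainers and depleted of dead cells, with no sort for endothelium. The labels give no strain, age, sex or treatment, and do not say whether libraries of a tissue came from separate animals. P-values for cell frequencies measure only the spread between libraries. Those for genes measure the spread of summed counts that remains once shifts between libraries are removed. Either spread may be technical. Libraries held 83852172 to 95777810 UMIs in 7697 to 17527 barcodes.

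Skin replicate 2 stood apart in depth. Its kept cells had a median of 2352.5 UMIs, against 9039.5 in skin replicate 1 and 10452 and 12908 in fascia. Scrublet, a doublet caller, marked 0 and 1 skin cells at its own threshold and so did not work there; leaving out the highest scores is an alternative below. Pairs of libraries shared 17 to 45 barcodes (0.22 to 0.584% of the smaller library), and 1 lymphatic cell of skin replicate 2 had a barcode that also occurred in skin replicate 1.

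Every value of the genes in the rule is a description, since these genes chose the cells. Ccl21 ranged from 38 to 1164 UMIs per cell in skin replicate 1, with a median of 333. In skin replicate 2 it ranged from 5 to 1395 with a median of 21. As a share of all UMIs of a cell, the median was 7.4% in skin replicate 1 and 1.04% in skin replicate 2. The ranges overlapped, but 43 cells of skin replicate 2 held fewer than 25 Ccl21 UMIs and no cell of skin replicate 1 did.

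The other rule genes were much sparser. Mmrn1 was detected with a median of 4 UMIs per cell in skin replicate 1 and 1 in skin replicate 2, and Prox1 with medians of 1 and 0. Flt4 had a median of 0 in both libraries. In skin replicate 2, 41 of 79 cells entered on a single UMI of these genes, against 4 of 23 in skin replicate 1. All 3 genes were seen together in 3 and 2 cells.

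The label was checked against Lyve1, Reln (reelin, a secreted glycoprotein made by lymphatic endothelium), Pdpn (podoplanin, the ligand of the platelet receptor CLEC-2), and the general endothelial genes Pecam1 and Cdh5, none of which the rule uses. At least 3 of these 5 genes were detected in 19 of 23 cells of skin replicate 1 and in 32 of 79 cells of skin replicate 2. None of the 5 was detected in 9 cells of skin replicate 2, so for those cells the label rests on the rule alone. The label is also uncertain for other cells of that library with few Ccl21 UMIs, described below. Lyve1 and Reln were found in the same cell in 18 and 33 cells, Lyve1 without Reln in 3 and 17, Reln without Lyve1 in 2 and 10, and neither in 0 and 19.

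Lyve1 was detected in 91.3% of the cells of skin replicate 1 and 63.3% of those of skin replicate 2. Among blood endothelial cells of the same libraries, defined below, the shares were 0.758% and 0.704%. Median depths were 4610 and 2418 UMIs in lymphatic cells and 11981.5 and 4525 UMIs in blood endothelial cells, so the deeper class had the far lower share. Cells with at least 2000 UMIs were then thinned to 2000 UMIs, which kept 22 and 51 lymphatic cells and left out 1 and 28. At that depth Lyve1 was detected in 86.4% and 70.6%, Reln in 63.6% and 52.9%, Pdpn in 59.1% and 45.1%, and Pecam1 in 40.9% and 27.4% of lymphatic cells.

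The cells of skin replicate 2 were also described by their own Ccl21 count, with no test. Of the 24 cells with at least 100 Ccl21 UMIs, 91.7% held Lyve1, 83.3% Reln, 87.5% Pdpn and 33.3% the basal keratinocyte gene Krt5, at a median of 4565.5 UMIs. Of the 43 cells with 5 to 24 Ccl21 UMIs, 39.5% held Lyve1, 39.5% Reln, 34.9% Pdpn and 93% Krt5, at a median of 1875 UMIs. In the 19 cells of skin replicate 1 with at least 100 Ccl21 UMIs, Lyve1 was detected in 89.5%, Reln in 89.5% and Krt5 in 21.1%. In skin replicate 2, Pecam1 was found in 62.5%, Cdh5 in 70.8% and the fibroblast gene Col1a1 in 8.33% of cells with at least 100 Ccl21 UMIs. In the 43 cells with 5 to 24 the shares were 18.6%, 18.6% and 44.2%, so the markers bear out the label of this set only weakly. The sets differ in depth as well as in Ccl21, and these shares were not thinned.

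**Figure D1:**
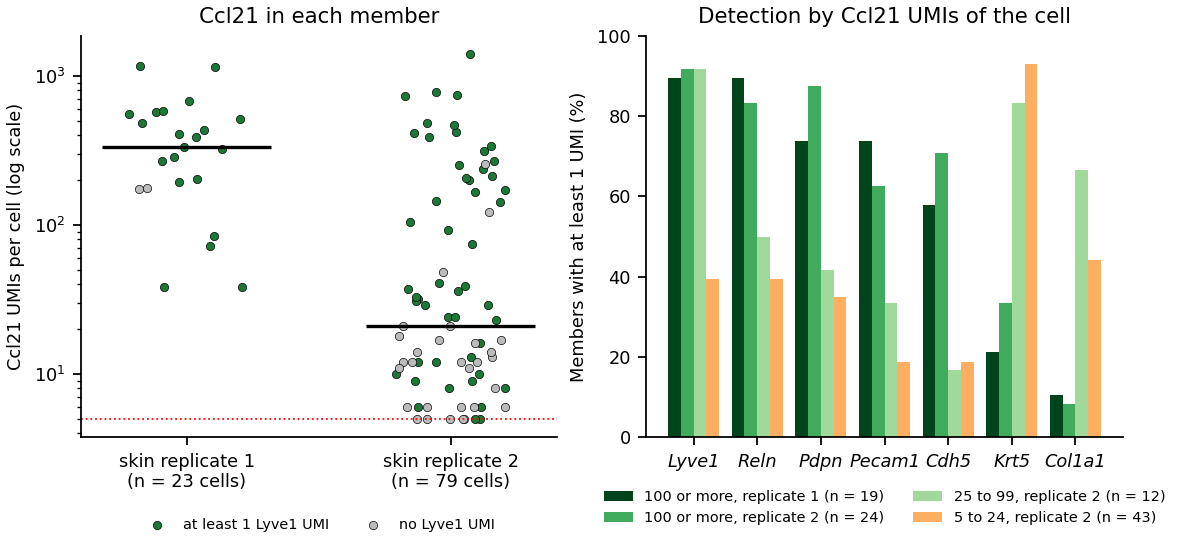
Left, Ccl21 UMIs (log scale) in each lymphatic endothelial cell of the 2 skin libraries, coloured by whether the cell held a Lyve1 UMI; black lines are medians (333 and 21) and the dotted line is the minimum of 5. Right, percent of cells with at least 1 UMI of 7 genes by the Ccl21 UMIs of the cell; in the 43 cells of replicate 2 with 5 to 24 Ccl21 UMIs, Lyve1 was found in 39.5% and Krt5 in 93%.

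Just inside the threshold lay 19 cells of skin replicate 2 with 5 to 9 Ccl21 UMIs, of which 42.1% held Lyve1 and 89.5% Krt5. Just outside lay 25 cells of that library with 1 to 4 Ccl21 UMIs and a rule gene, of which 28% held Lyve1 and 76% Krt5, and 1 such cell of skin replicate 1. A further 125 cells of skin replicate 2 had 5 to 24 Ccl21 UMIs and no rule gene, of which 24.8% held Lyve1, 96% Krt5 and 60% Col1a1. Another 19 cells of that library, and 1 of skin replicate 1, had 25 or more Ccl21 UMIs and no rule gene; of the 19, 52.6% held Lyve1 and 100% Krt5. The lymphatic cells carried 95% of all Ccl21 UMIs of kept cells in skin replicate 1 and 77.9% in skin replicate 2.

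Genes of other cell types moved with the library. The 17 keratinocyte markers in the files took 0.0452% of lymphatic UMIs in skin replicate 1 (12 of 17 with a UMI) and 1.47% in skin replicate 2 (15 of 17). In blood endothelial cells they took 0.154% and 0.498%, and over all kept cells 2.96% and 3.17%. In skin replicate 2 the share was 1.78% in cells with 5 to 24 Ccl21 UMIs and 1.3% in the others, and without the 9 cells that also met keratinocyte or fibroblast minimums it was 0.812%. A single cell with 36121 UMIs, 315 of them Krt5, supplied 10.5% of the lymphatic UMIs of that library. The 19 fibroblast markers took 0.0387% and 0.0798%, and the 16 mural markers 0.00484% and 0.0408%. The 18 myeloid markers took 0.00807% and 0.00583%, and the 12 lymphocyte markers 0.00161% and 0.000583%. Krt5 was detected in 9.09% and 52.9% of lymphatic cells and in 11.4% and 47.8% of blood endothelial cells after thinning. The 28 lymphatic cells of skin replicate 2 left out by thinning all held Krt5, and they are missing from the thinned Lyve1 shares too. Unthinned, Krt5 was found in 40 of 43 cells of that library with 5 to 24 Ccl21 UMIs, 10 of 12 with 25 to 99 and 8 of 24 with 100 or more. The part of keratinocyte RNA or of mixed droplets in the results below was not tested; the frequency, the counts of genes over the whole table and the gene lists whose counts changed are also given without those 9 cells.

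The frequency of the cells was compared between skin and fascia, the design of the series. They made up 0.308% of kept cells in skin replicate 1 (exact binomial 95% interval 0.196 to 0.462%) and 0.481% in skin replicate 2 (0.381 to 0.599%). Without the 9 cells named above, skin replicate 2 stood at 0.426%. The order of the skin libraries depended on the Ccl21 minimum: at 25 or more UMIs they stood at 0.308% and 0.219%, and with at least 10 Ccl21 UMIs and 2 UMIs of the other rule genes at 0.255% and 0.189%. The same rule found 0 of 6812 cells in fascia replicate 1 (upper limit 0.0541%) and 1 of 7008 in fascia replicate 2 (0.0143%). The skin libraries lay above both fascia libraries. Intervals cover counting error only, and 2 libraries against 2 cannot give an exact permutation p below 0.33, the value found (two-sided).

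Relative to blood endothelium the order was the same. Lymphatic cells were 14.8% of lymphatic plus blood endothelial cells in skin replicate 1 and 35.8% in skin replicate 2, against 0% and 0.168% in fascia, where 277 and 595 blood endothelial cells were found (exact permutation p = 0.33, two-sided). The skin values moved with depth and with the rule. After thinning cells to 2000 UMIs before the rule they were 32.3% and 35.6%, with at least 25 Ccl21 UMIs 14.8% and 20.2%, under the stricter member rule 12.6% and 17.9%, and without the 9 cells 14.8% and 33%. With blood endothelial cells defined by either of their genes alone, the mean difference between tissues fell from 25.2 to 13.9 percentage points. The fascia cell carried 286 Ccl21, 24 Mmrn1, 24 Lyve1, 10 Reln and 5 Pdpn UMIs and no Krt5 among 15237. Fewer cells of a type in the tissue and fewer released by digestion cannot be told apart.

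Gene expression was compared with the nearest class, blood endothelial cells of the same libraries (132 and 142 cells). These held at least 3 UMIs of Plvap and Vwf, with both detected, and no Prox1 or Mmrn1, a rule that favours vessels expressing Vwf. UMIs were summed per library and class, and tested with edgeR's quasi-likelihood method, the library being a block, in a fit that also held mural cells, fibroblasts and keratinocytes. Levels are counts scaled to a common total (CPM) after scaling for composition. Lymphatic sums held 123983 and 343207 UMIs, so 1 UMI stood for 8.07 and 2.91 CPM before that scaling. In skin replicate 2, the 43 cells with 5 to 24 Ccl21 UMIs supplied 33.9% of the lymphatic UMIs. Lymphatic levels of that library therefore include cells whose label the markers bear out only weakly.

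Of 11350 genes tested, 564 differed between lymphatic and blood endothelial cells at an adjusted p under 0.05 (4.97%): 214 were higher in lymphatic cells (1.89%) and 350 lower (3.08%). Without the cells that also met other classes' minimums, 546 genes were called, and with only cells of at least 25 Ccl21 UMIs, 572. The median log2 difference over all genes was -0.0983. Genes named by size of change had to have libraries that do not overlap between the classes, so their separation is part of how they were picked.

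Of the 12 genes named for the largest differences, 3 that encode secreted glycoproteins and semaphorins are described first. Reln stood at 582 and 523 CPM in lymphatic cells and at 0 in both blood endothelial sums, at least 510-fold higher when 3 UMIs over the group are taken as the floor. Sema3a, a semaphorin that binds neuropilin-1 and repels axons and endothelial cells, stood at 258 and 250 CPM against 0 and 0, at least 238-fold higher. Sema3d, a related semaphorin, stood at 500 and 336 CPM against 0 and 7.82 (log2 difference 7.12, SE 0.84; edgeR adjusted p = 0.00175). Fibroblasts also held Sema3a, at 118 and 36.7 CPM, a fitted 1.96 log2 units below lymphatic cells. Within single libraries the Sema3d difference was 11.27 in skin replicate 1, where blood endothelium had no UMI, and 5.39 in skin replicate 2. The value of 11.27 depends on a small count added before logs are taken.

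Surface and innate immune genes followed. Lyve1 reached 2320 and 1140 CPM against 0.591 and 0.869, where blood endothelium had 2 UMIs in all, a ratio of 2070 (counting interval 570 to 17100). Pdpn stood at 500 and 292 CPM against 1.18 and 0, a ratio of 492 (134 to 4100). Ptx3, a soluble pattern-recognition pentraxin, stood at 103 and 247 CPM against 0 and 0, at least 198-fold higher. The naming rule required each to be higher in lymphatic cells of both libraries. Fibroblasts also held Pdpn and Ptx3, where Pdpn lay 1.32 log2 units and Ptx3 2.33 log2 units below lymphatic cells.

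Cytoskeletal, trafficking and signalling genes completed the rule's 12. Dtx1, a Deltex E3 ubiquitin ligase of the Notch pathway, stood at 147 and 84 CPM against 0 and 0, at least 95.4-fold higher. Flnc (the actin cross-linker filamin C) and Sh3gl3 (endophilin A3) each had a ratio of 319 (55.1 to 12800), and Nsg1, a vesicle-trafficking protein, one of 259 (44.2 to 10400), all over a single blood endothelial UMI. Tc2n, a protein with tandem C2 domains, stood at 596 and 486 CPM against 6.5 and 6.95 (log2 difference 6.32, SE 0.49; edgeR adjusted p = 0.00051). Fxyd6, a regulator of the sodium pump, stood at 88.3 and 81.4 CPM against 2.95 and 0.869 (5.43, SE 0.65; edgeR adjusted p = 0.00185).

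**Figure D2:**
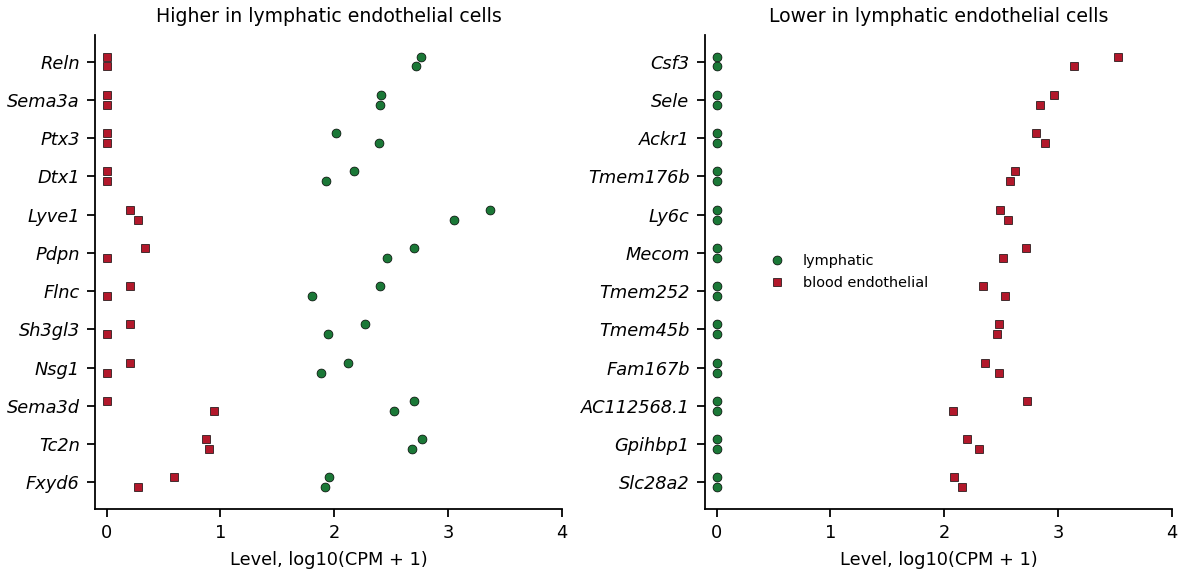
Level, as log10(CPM + 1), of the 12 genes with the largest called difference in each direction, in lymphatic (green circles) and blood endothelial (red squares) sums of the 2 skin libraries; in each pair the upper symbol is replicate 1. In the left panel all green symbols lie right of the red ones, and in the right panel all green symbols lie at 0.

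All 12 genes with the largest differences in the other direction had no UMI in lymphatic cells. Csf3 (granulocyte colony-stimulating factor) stood at 3370 and 1380 CPM in blood endothelium, at least 442-fold lower in lymphatic cells. Sele (E-selectin, which captures rolling leukocytes) stood at 922 and 688 CPM, at least 142-fold lower. Ackr1, the atypical chemokine receptor of venules, stood at 643 and 764 CPM, at least 119-fold lower.

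Gpihbp1, which carries lipoprotein lipase to the capillary lumen, stood at 159 and 202 CPM in blood endothelium, at least 30.4-fold lower in lymphatic cells. The transcription factor Mecom stood at 519 and 327 CPM, at least 76-fold lower. The remaining 7, Tmem176b, Ly6c, Tmem252, Tmem45b, Fam167b, AC112568.1 and the nucleoside transporter Slc28a2, were at least 22.4- to 69.4-fold lower.

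The comparison was extended to mural cells, fibroblasts and keratinocytes; skin immune cells (316 and 231) were not part of the fit. A gene counted when lymphatic cells were higher than blood endothelial, mural, fibroblast and keratinocyte sums, each at an adjusted p under 0.05; 55 of 11350 genes did so (0.485%), and 56 without the 9 cells. Lyve1 led, with its smallest log2 difference against any class at 11.24, followed by Reln at 7.34, Sh3gl3 at 5.97, Dtx1 at 5.65, Tc2n at 5.36 and Sema3d at 4.66. Of the 12 first by that measure, Nsg1 (4.31) and Flnc (4.26) were also among the genes above. Fits at 0 UMIs depend on the prior count, so these values rank the genes and are no bounds.

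The set added Dusp2, Piezo2, Pkhd1l1 and Gdf15. Piezo2, a mechanically gated ion channel best known from touch neurons, stood at 302 and 89.3 CPM in lymphatic cells and 0.591 and 19.1 in blood endothelium (log2 difference 4.29, SE 1.01; edgeR adjusted p = 0.0393). Its single-library differences were 8.57 and 2.21, and the adjusted p rose to 0.0648 without the highest doublet scores. Pkhd1l1, a large fibrocystin-like membrane protein, stood at 316 and 131 CPM against 20.1 and 11.3 (3.79, SE 0.35; edgeR adjusted p = 0.000662).

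Dusp2, a phosphatase of MAP kinases, stood at 846 and 126 CPM against 26.6 and 12.2 (4.42, SE 0.89; edgeR adjusted p = 0.0202). Gdf15, a stress-induced TGF-beta family cytokine, stood at 817 and 644 CPM against 78 and 11.3 (4.75, SE 0.73; edgeR adjusted p = 0.00595). The naming rule required both lymphatic sums to lie above every sum of the other 4 classes, so that order is no separate result. Dusp2 stood far higher in skin replicate 1 than in skin replicate 2. On the unscaled CPM scale, immune cells of skin held Dusp2 at 69.1 and 125 CPM against 928 and 140 in lymphatic cells, and Piezo2 at 93.4 and 3.76 CPM against 331 and 99.1. Without the library block Gdf15 was not called (adjusted p = 0.128).

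**Figure D3:**
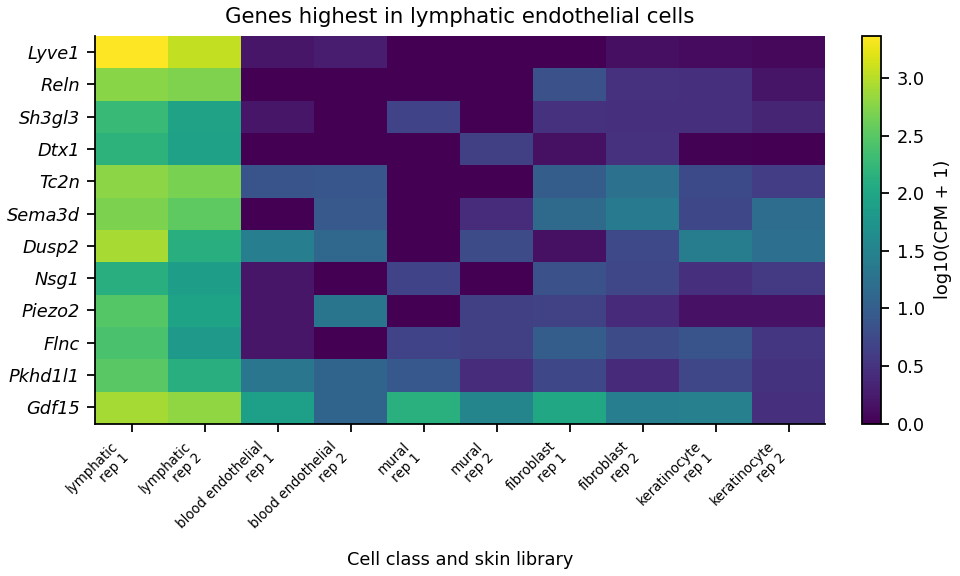
Level, as log10(CPM + 1) by colour, of the 12 genes with the largest smallest-difference against 4 other classes, in summed cells of 5 classes and 2 skin libraries. The lymphatic columns are the brightest in every row, which the naming rule required. Lyve1 is at 2320 and 1140 CPM in those columns.

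Genes were then read by role, using lists drawn up with earlier results of these data known, so their counts are not independent evidence. Each count is to be read against the 1.89% higher and 3.08% lower over all tested genes. Of 11 tested genes of lymphatic capillaries, 7 were higher and none lower, with a median log2 difference of 4.29. They were Reln, Lyve1, Pdpn, Piezo2 and the following. Ackr2, a decoy receptor that clears inflammatory CC chemokines, stood at 88.3 and 166 CPM against 1.77 and 4.35 (log2 difference 5.38, SE 0.63; edgeR adjusted p = 0.00239). Il7, the survival cytokine of lymphocytes, stood at 58.9 and 26.3 CPM against 1.18 and 2.61 (4.51, SE 0.82; edgeR adjusted p = 0.0129). Tbx1, a transcription factor of lymphatic development, stood at 81 and 70.9 CPM against 6.5 and 5.21 (3.68, SE 0.59; edgeR adjusted p = 0.00946).

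Of 20 tested genes of collecting vessels and valves, 6 were higher and 3 lower. Foxc2, the transcription factor of valve formation, stood at 51.5 and 18.4 CPM against 0.591 and 2.61 (4.38, SE 1.03; edgeR adjusted p = 0.0393); this rested on 7 UMIs in each library and was not called without the highest doublet scores (adjusted p = 0.0706). Cldn11, a tight-junction claudin, stood at 44.2 and 44.6 CPM, a ratio of 127 (20.6 to 5210) over 1 blood endothelial UMI. Klf2, a flow-responsive transcription factor, stood at 4240 and 2640 CPM against 284 and 650 (2.93, SE 0.49; edgeR adjusted p = 0.00849). Klf4, Neo1 and Ackr3 were the other higher genes.

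The lower genes of that list were Esam, Nos3 and Bmp4. Nos3, endothelial nitric oxide synthase, stood at 0 and 18.4 CPM in lymphatic cells against 178 and 202 (-4.04, SE 0.77; edgeR adjusted p = 0.0162). Bmp4, a bone morphogenetic protein, stood at 0 and 52.5 CPM against 172 and 394 (-3.17, SE 0.7, edgeR adjusted p = 0.0298). It was not called without the library block (edgeR adjusted p = 0.0809). Its single-library differences were -9.74 and -2.9. The first depends on a small count added before logs are taken, since lymphatic cells of skin replicate 1 had no Bmp4 UMI. Levels were lower in lymphatic cells of both libraries for these genes.

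The wider identity list had 5 of 21 tested genes higher, Reln, Lyve1, Pdpn, Pard6g and Tbx1, and 1 lower, Fgl2. Pard6g, a cell-polarity protein, stood at 493 and 376 CPM against 8.86 and 18.2 (5.11, SE 0.54; edgeR adjusted p = 0.00111). Nrp2, the co-receptor of Flt4 for VEGF-C, was not called, at 221 and 134 CPM against 347 and 230 (-0.71, SE 0.26; edgeR adjusted p = 0.167). Prox1 itself stood at 316 and 152 CPM, Mmrn1 at 766 and 457 and Flt4 at 51.5 and 23.6, against 4.73 and 3.48 CPM of Flt4 in blood endothelium.

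Some general endothelial genes were lower in lymphatic cells. Of 20 tested, 7 were called lower and none higher, with a median of -1.79: Cd93, Esam, Sox17, Clec14a, Sox7, Mmrn2 and Eng; Mmrn2 was not called without the 9 cells. Pecam1, the junctional adhesion molecule CD31, stood at 331 and 160 CPM against 533 and 470 and was not called (-1.12, SE 0.48; edgeR adjusted p = 0.252). Cdh5, VE-cadherin, stood at 191 and 105 CPM against 505 and 403 and was not called either (-1.69, SE 0.63; edgeR adjusted p = 0.185). Esam, a tight-junction adhesion molecule, stood at 14.7 and 10.5 CPM against 542 and 493 (-5.63, SE 0.66; edgeR adjusted p = 0.00175). Cd93, a C-type lectin-like receptor, had 1 UMI in lymphatic cells, a ratio of 282 (50.5 to 11100) in favour of blood endothelium.

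Of 20 tested blood endothelial genes, 13 were lower and none higher, with a median of -3.59, or -2.81 with genes at 0 UMIs set to their bound. Beside Sele, Ackr1 and Gpihbp1 this held Selp (P-selectin), at 0 and 10.5 CPM against 1910 and 2240 (-8.21, SE 0.8; edgeR adjusted p = 0.000662). Before scaling for composition, Selp stood at 1600 and 2240 CPM in skin blood endothelium and at 85.6 and 123 CPM in fascia blood endothelium. The apelin receptor Aplnr had no UMI in lymphatic cells and 17.7 and 53 CPM in blood endothelium, at least 5.51-fold lower. Vwf had no UMI in any of the 102 cells at their median depths of 4610 and 2418 UMIs, which does not bound the share of cells expressing it, while Plvap was seen in 0 of 23 and 21 of 79; both were part of the blood endothelial rule and were not tested. Kdr (VEGFR2) was not called, at 147 and 268 CPM against 337 and 318 (-0.58, SE 0.41; edgeR adjusted p = 0.501).

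**Figure D4:**
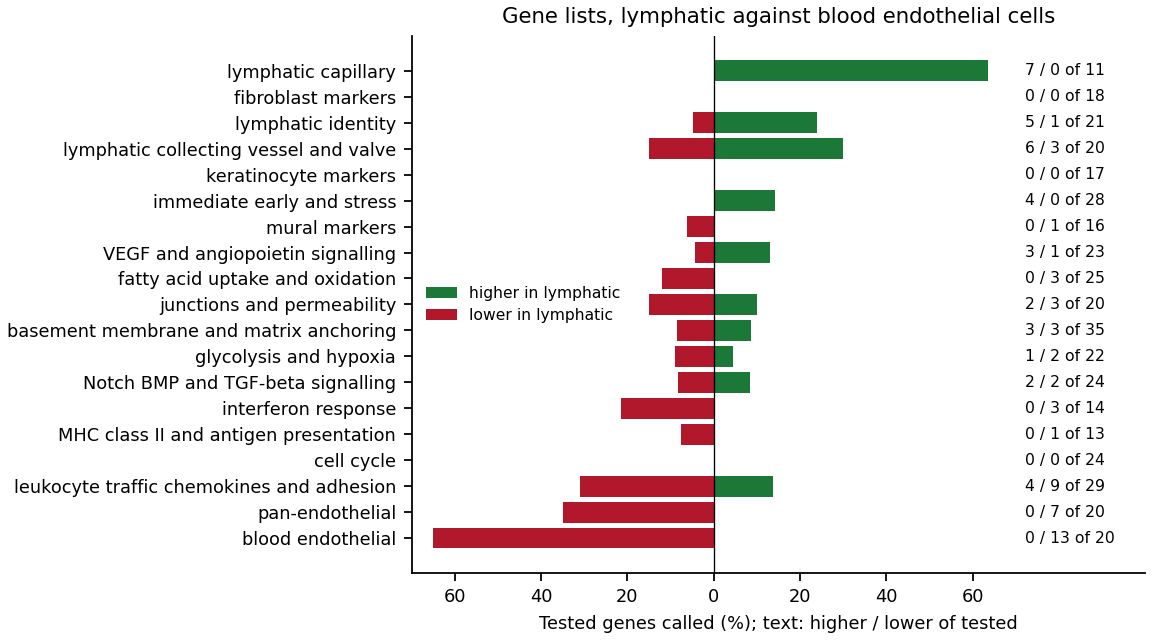
Percent of the tested genes of each list that were called higher (green, right) or lower (red, left) in lymphatic than in blood endothelial cells, with the counts at the right; lists run from the lowest median log2 difference (bottom) to the highest (top), and those with fewer than 5 tested genes are left out. Calls stood at 7 of 11 higher for lymphatic capillary genes and 13 of 20 lower for blood endothelial genes.

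Among genes of leukocyte traffic, 4 of 29 tested were higher (Ackr2, Il7, Cxcl2 and Ackr3) and 9 lower (Sele, Ackr1, Cxcl9, Selp, Jam2, Vcam1, Csf1, Cd200 and Ccl7). Cxcl9, a chemokine induced by interferon-gamma, had no UMI in lymphatic cells against 174 and 54.8 CPM, at least 21.6-fold lower. Cxcl12, the ligand of Cxcr4, was at 0 and 47.3 CPM against 120 and 100 and was not called (-1.84, SE 1.04; edgeR adjusted p = 0.394). In skin replicate 2, Cxcl12 was found in 8 of 43 cells with 5 to 24 Ccl21 UMIs, 4 of 12 with 25 to 99 and 0 of 24 with 100 or more. Krt5 was found in 93%, 83.3% and 33.3% of these sets, and the part of mixed droplets was not tested. S1pr1, the sphingosine-1-phosphate receptor, was not called at 132 and 97.2 CPM against 265 and 258 (-1.25, SE 0.48; edgeR adjusted p = 0.198).

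Of 14 tested interferon-response genes, 3 were lower, namely Gbp2, Ifit3 and Irf7, and none higher, against 3.08% lower and 1.89% higher over all genes. Without the 9 cells Ifi27 was called lower as well. Gbp2, a guanylate-binding protein, stood at 14.7 and 13.1 CPM against 256 and 112 (-3.46, SE 0.53; edgeR adjusted p = 0.00595). Of 13 tested genes of antigen presentation, only Tap1, the peptide transporter, was lower, at 29.4 and 15.8 CPM against 126 and 73 (-2.22, SE 0.48; edgeR adjusted p = 0.0272). B2m, the class I light chain, stood at 2270 and 3000 CPM against 8410 and 5400 and was not called (-1.34, SE 0.34; edgeR adjusted p = 0.0507).

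Of 23 tested genes of VEGF and angiopoietin signalling, semaphorins included, the ligand genes Sema3a, Sema3d and Vegfa were higher and the phosphatase gene Ptprb was lower; 1 lower gene is close to the share over all genes. Vegfa stood at 73.6 and 49.9 CPM against 12.4 and 11.3 (2.38, SE 0.37; edgeR adjusted p = 0.00648), and was not called when blood endothelial cells needed only 1 of their genes (adjusted p = 0.0526). Of 24 Notch, BMP and TGF-beta genes, the ligand gene Bmp2 and the Notch target Hes1 were higher, and Bmp4 and Eng lower. Bmp2 stood at 110 and 78.8 CPM against 7.68 and 5.21 (3.81, SE 0.5; edgeR adjusted p = 0.00274), and Eng, a co-receptor of BMP9 signalling, at 294 and 184 CPM against 857 and 856 (-1.9, SE 0.29; edgeR adjusted p = 0.00595).

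Of 25 tested genes of fatty acid uptake and oxidation, Gpihbp1, Fabp4 and Scarb1 were lower and none higher, while the median of the list was 0.277. Fabp4, the fatty-acid-binding protein of capillary endothelium, stood at 7.36 and 57.8 CPM against 8410 and 6690 (-7.5, SE 0.66; edgeR adjusted p = 0.00051). Scarb1, the HDL receptor SR-B1, stood at 7.36 and 10.5 CPM against 555 and 454 (-5.64, SE 0.6; edgeR adjusted p = 0.00116). Apoe, an apolipoprotein, stood at 184 and 4360 CPM against 7780 and 7700 and was not called (-2.24, SE 0.9; edgeR adjusted p = 0.221), the lymphatic libraries lying far apart.

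Of 22 glycolysis and hypoxia genes, Vegfa was higher and Epas1 and Ldha lower, joined by Pfkp without the 9 cells. Ldha, lactate dehydrogenase A, stood at 147 and 268 CPM against 1110 and 776 (-2.1, SE 0.38; edgeR adjusted p = 0.0118), and Epas1 (HIF-2 alpha) at 29.4 and 23.6 CPM against 181 and 187 (-2.88, SE 0.5; edgeR adjusted p = 0.0104). Of 24 cell-cycle genes none was called, and Mki67, a marker of cycling cells, was at 0 and 23.6 CPM against 24.2 and 37.4. In skin replicate 2, Mki67 was found in 7 of 43 cells with 5 to 24 Ccl21 UMIs, 2 of 12 with 25 to 99 and 0 of 24 with 100 or more.

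Junction and matrix genes come next. Of 20 junction genes, Cldn11 and Jup (plakoglobin) were higher, and Jam2, Esam and Cavin3 lower; Jam2, a junctional adhesion molecule, had 2 UMIs in lymphatic cells, a ratio of 106 (29.4 to 879) in favour of blood endothelium. Of 35 basement membrane and anchoring genes, Reln, Lama3 and Fbln5 were higher and Fbln2, Col4a1 and Col4a2 lower. Col4a1, a collagen IV chain, stood at 155 and 105 CPM against 429 and 813 (-2.33, SE 0.43; edgeR adjusted p = 0.0136). Fbln5, an elastic-fibre fibulin, stood at 132 and 86.7 CPM against 21.3 and 22.6 (2.29, SE 0.36; edgeR adjusted p = 0.00638). Lama3, a laminin chain of epithelial basement membranes, stood at 7.36 and 121 CPM against 4.14 and 20, and its libraries overlapped between the classes. Keratinocytes express Lama3 and Jup too, and without the 9 cells neither was called (edgeR adjusted p = 0.138 for Lama3 and 0.0543 for Jup), nor was Col4a2.

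Of 28 immediate-early and stress genes, 4 were higher and none lower: Klf2, Klf4, Gadd45b and Nr4a1. Only Klf2 was also called above all 4 other classes. Mural cells held Gadd45b at 1990 and 1880 CPM and Nr4a1 at 628 and 813 CPM, and fibroblasts held Klf4 at 2530 and 1670 CPM. Without the 9 cells the same 4 were higher and Dnajb1, Hspa8 and Socs3 were lower. Klf4 stood at 2970 and 2990 CPM against 597 and 985 (1.94, SE 0.34; edgeR adjusted p = 0.0112), and Gadd45b, a growth-arrest and DNA-damage gene, at 2010 and 1730 CPM against 378 and 479 (2.13, SE 0.28; edgeR adjusted p = 0.00266). Fos was not called, at 5450 and 5380 CPM against 1540 and 3360 (1.22, SE 0.32; edgeR adjusted p = 0.0617).

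Marker lists of other cell types were tested in the same fit. None of 17 keratinocyte, 18 fibroblast, 4 myeloid or 3 Schwann and melanocyte genes was called in either direction, and of 16 mural genes Mylk alone was lower. Over all genes 4.97% were called, so lists this short are near that share. The fibroblast list had a median log2 difference of 2.06, or 1.76 with genes at 0 UMIs set to their bound, against -0.0983 over all genes. Medians were 0.558 for keratinocyte, 0.4 for mural, 0.0898 for Schwann and melanocyte and -0.968 for myeloid genes. The keratinocyte genes differed between the lymphatic libraries: Krt15 stood at 66.2 and 6140 CPM and Sfn at 81 and 2590 CPM. In blood endothelium Krt15 stood at 679 and 2050 CPM and Sfn at 222 and 743 CPM.

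Variation among the lymphatic cells was tested along Lyve1, which the rule does not use, after thinning to 2000 UMIs. Cells with a Lyve1 UMI numbered 19 and 30 and cells without one 3 and 21, in skin replicates 1 and 2. By edgeR's quasi-likelihood test 0 of 633 genes were called (0%), with 12 at an unadjusted p under 0.05; DESeq2 called 0, with 6 at an unadjusted p under 0.05. The lowest adjusted p was that of Lrg1, a secreted leucine-rich glycoprotein of endothelium, with 14 and 37 thinned UMIs in Lyve1-positive cells and 0 and 2 in the rest (log2 difference 3.76; edgeR adjusted p = 0.0786). The 3 Lyve1-negative cells of skin replicate 1 limit the precision of this comparison. Before thinning, Lyve1 was held by 91.7% of skin replicate 2 cells with at least 100 Ccl21 UMIs and 39.5% of those with 5 to 24. After thinning, the 21 negative cells of that library held 305 Krt15, 126 Sfn and 24 Krt17 UMIs. The 30 positive cells held 222, 105 and 24. The part of keratinocyte RNA in this split was not tested.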

How the data were processed

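The authors deposited 1 matrix of UMI counts per library, whole numbers per gene and barcode, with no normalization; per the matrix headers it was written by Cell Ranger 7.0.0, whereas the submitters' processing notes name Cell Ranger 6.0.1, STAR and the builds mRatBN7.2 and GRCh38.p13. Of 30560 genes, 7162 carry an identifier only; Flt1, Krt14, Cldn5 and Ackr4 are not named by symbol and were not analysed here, so the blood endothelial rule used Plvap and Vwf, and the keratinocyte rule Krt5.

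The 102 cells, the comparison classes and the gene lists were chosen with earlier results of these data known. Counts were summed per library and class (5 classes, 10 sums) and tested with edgeR 4.0.16 (TMM scaling, filterByExpr, quasi-likelihood F-test, 4 residual degrees of freedom, Benjamini-Hochberg threshold 0.05) in R 4.3.3; genes used by any class rule were left out of the test. Both classes come from the same libraries, which pairs them: deviations of same-library sums correlated at 0.113 to 0.333 over 6158 genes. Named genes were the 12 with the largest called change in each direction and the 12 highest above all 4 classes. Up to 5 per list and a set list of endothelial genes were added. Both rules by size asked for a symbol, at least 50 CPM in both libraries of the higher class, and libraries that do not overlap. For the second rule, both lymphatic sums had to lie above every sum of the other 4 classes. The first rule also asked for at least 0.2 of the highest class's level. Other list genes are named by call only. Ratios over 1 to 3 UMIs carry 95% intervals for counting error.

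On simulated counts for lymphatic against blood endothelial sums (11267 genes), 4-fold changes were recovered in 92% (higher) and 78% (lower) of 50 genes each and 16-fold changes in 100%, with 8 of 11067 unchanged genes called. Changed genes were drawn only from those with at least 50 CPM in blood endothelium, so recovery is not known for genes with few UMIs. Both libraries of a class had the same simulated mean levels, so library differences such as that of Krt15 were not simulated. Alternatives covered scaling, low-count filter, DESeq2 1.42.0, library block, cell filters, member rule, doublets (Scrublet in Scanpy 1.11.5) and class rules. Two-sided exact permutation tests compared libraries.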

Additional observations from a re-analysis of the deposited data

How the results depend on the processing

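The count of 564 genes ranged from 423 without the replicate block to 1143 without the low-count filter, with 845 by DESeq2; the 55 genes above all 4 classes became 35 without the replicate block and 97 without the filter, which tests 21560 genes. Over the other alternatives the counts were 440 to 579 and 42 to 78 (the last by DESeq2), and no followed gene changed direction. The Lyve1 split called 0 genes in every alternative run. Of 38 called genes followed, 33 were called in every alternative with a test; Piezo2, Foxc2, Gdf15, Bmp4 and Vegfa were not (Piezo2 also with adjusted p = 0.0584 when only lymphatic and blood endothelial sums were fitted). Pecam1, Cdh5, Cxcl12 and S1pr1 were called without the low-count filter (adjusted p = 0.0239, 0.000163, 0.00138 and 0.019), and Cdh5 also with only lymphatic and blood endothelial sums (0.0454). These alternatives were chosen after seeing the data: Ccl21 at least 25 UMIs, and blood endothelial cells by either gene alone. Leaving out a library leaves no residual degrees of freedom, so gene counts were not run that way.

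The skin minus fascia difference was 0.301 to 0.473 percentage points of cells, and 14.8 to 35.7 points of endothelial cells, with each library left out in turn. Pairing same-numbered skin and fascia libraries as a block left them at 0.387 and 25.2 points (exact p = 0.5, the smallest 2 pairs allow). Over the other alternatives they ran from 0.215 to 0.446 and from 13.9 to 33.8 points. Depth limits what can be seen: 1 UMI is 8.07 CPM in lymphatic cells of skin replicate 1.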

Other observations

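Cells with rule genes but no Ccl21 UMI were counted as well. There were 24 such cells in skin replicate 1 and 58 in skin replicate 2, with Lyve1 in 8.33% and 10.3% and Plvap in 62.5% and 34.5%. In fascia, where Ccl21 was nearly absent, 91 and 84 cells carried a rule gene without Ccl21; 78% and 82.1% of them held Flt4, 82.4% and 86.9% Plvap, and 0 and 0 Reln.

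In fascia Lyve1 was found mainly outside endothelium. Unscaled Lyve1 levels in the Ptprc-positive immune cells of fascia were 1040 and 362 CPM, against 6.15 and 18.2 CPM in skin immune cells and 3.47 and 4.74 CPM in fascia blood endothelial cells. Sema3d, high in skin lymphatic cells, stood at 148 and 122 CPM in fascia fibroblasts and at 11.2 and 23.5 CPM in skin fibroblasts on the same scale.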
